A study of Ovis aries with 2 samples.

Results

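From sheep cerebral cortex, 290 shallow barcodes were picked by the RNA of 6 genes, 5 of them genes of the neuronal cytoplasm and dendrites and 1 a glial gene. A barcode was taken when it came from the pre-processed library, held under 2000 unique molecular identifiers (UMIs, each marking 1 captured RNA molecule), and carried at least 3 UMIs and at least 3000 counts per 1000000 UMIs (CPM) summed over CAMK2A, NEFL, NEFM, S100B, HPCAL4 and DDN. The 290 members made 33.1% (95% exact binomial interval 29.99 to 36.3%) of the 876 pre-processed barcodes under 2000 UMIs. They made 13.6% (12.2 to 15.2%) of the 2125 pre-processed barcodes, and the series held 3030 barcodes in all. The rule used measured values, so the 6 genes are described here without any test. All intervals given here cover counting error only.

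Single-nucleus RNA was captured with an Illumina T2 kit from cerebral cortex of wildtype adult female Rambouillet sheep, labelled 18 to 36 months old and given no treatment in life. The post-processed library (905 barcodes) came from tissue that was first cleared of debris and red blood cells, and the pre-processed library (2125 barcodes) came from tissue that went straight to isolation of nuclei. Each condition was 1 library, both carried the same batch label, and the series text speaks of 1 animal with about 5000 nuclei per condition. The post-processed sample carries a treatment label that describes uncleared tissue, which contradicts both its title and the series text, so the 2 conditions were told apart by title. With 1 library per condition and barcodes that are not replicates, no difference below has a replicate check and no p-value is given.

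A nucleus preparation samples mostly unspliced RNA, in which genes with long introns weigh heavily. Messenger RNA of short, strongly translated genes, such as those for ribosomal proteins and the mitochondrial respiratory chain, sits mainly in the cytoplasm. In rodents the CAMK2A messenger, which encodes a subunit of the calcium-dependent kinase of excitatory synapses, and the DDN messenger, which encodes the postsynaptic protein dendrin, are carried into dendrites. NEFL and NEFM encode neurofilament subunits of axons, HPCAL4 a neuronal calcium sensor, and S100B a calcium-binding protein of astrocytes and cells of the oligodendrocyte lineage.

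The members were compared with 2 sets from the same library. The near set was the other 586 pre-processed barcodes under 2000 UMIs. The far set was 619 pre-processed barcodes of at least 2000 UMIs in which neuronal markers led the marker lists. Members held 907 to 1997 UMIs (median 1261.5) and the near set 904 to 1997 (median 1343.5), against a median of 6831 UMIs in the far set. The UMIs summed to 379706 in members, 807128 in the near set and 4993609 in the far set. No barcode occurred in both libraries, no doublet caller was run and no doublets were removed. The genes listed lie on chromosomes 1 to 9, so every total and CPM refers to those genes, and the counts do not separate spliced from unspliced RNA.

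Among the 6 genes of the rule, CAMK2A carried the choice. It had 1197 UMIs in members, or 3152 CPM (2976 to 3336), against 746 CPM (688 to 808) in the near set and 1263 CPM in the far set. It was detected in 282 of 290 members and was the most abundant of the 6 in 227. Leaving CAMK2A out of the sum would keep 48 of the members, whereas leaving out S100B would keep 238.

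The other 5 genes were sparser. S100B stood at 640 CPM in members, 162 in the near set and 35.6 in the far set, and it led the 6 genes in 19 members. HPCAL4 stood at 477 CPM in members, 100 CPM in the near set and 121 CPM in the far set. The neurofilament genes NEFL and NEFM stood at 342 and 237 CPM in members, 97.9 and 59.5 CPM in the near set, and 51.5 and 66.9 CPM in the far set. DDN was the rarest, at 153 CPM in members, 40.9 CPM in the near set and 51.5 CPM in the far set.

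The choice rested on few molecules. A member held 3 to 22 UMIs of the 6 genes together, with a median of 6, and 121 of the 290 held 3 to 5. The summed level ran from 3005 to 18395 CPM, with a median of 4376 CPM. Only 1 of the 6 genes was seen in 35 members, 2 were seen in 112, 3 in 84, 4 in 52, 5 in 6 and all 6 in 1.

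**Figure D1:**
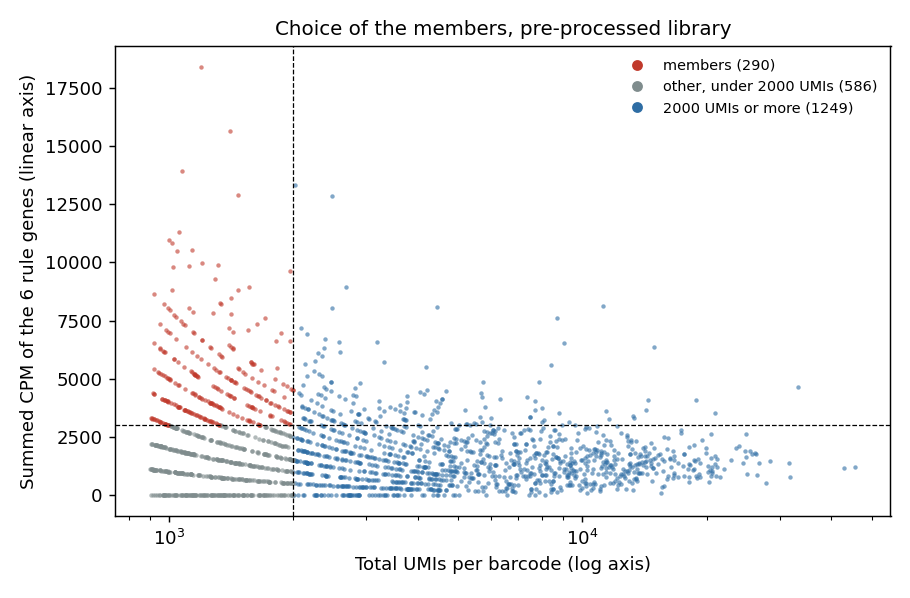
Each point is a pre-processed barcode, with its UMI total on a log x axis and the summed CPM of the 6 rule genes on a linear y axis, and the dashed lines mark 2000 UMIs and 3000 CPM. The 290 members fill the upper left field by the rule and reach 18395 CPM.

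The edges of the rule cut through a continuous range. The 60 members of 3000 to below 3500 CPM had 3525 CPM of ribosomal protein RNA, and the 70 barcodes of 2500 to below 3000 CPM just outside had 3045. The 26 members of 1800 to below 2000 UMIs had 4287 CPM, and the 18 barcodes just over the UMI limit that met the other conditions had 4808. Barcodes on either side of an edge were thus close in this RNA.

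Ribosomal protein genes, which the rule did not use, were higher in members than in the near set. The 34 listed genes summed to 1972 UMIs in members, or 5193 CPM (4967 to 5428), against 2799 CPM (2685 to 2917) in the near set, a log2 ratio of 0.89 (0.80 to 0.98). Of the 31 with at least 100 UMIs over the pre-processed library, 15 were at least 2-fold higher and 0 were at least 2-fold lower. Over all 5603 genes so measured, which leave out the 6 rule genes, 6.05% were at least 2-fold higher in members and 4.21% at least 2-fold lower, with a median log2 ratio of 0.05.

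The higher level was shared across most of the family, with 30 of the 31 measured genes above the near set. RPLP1, a protein of the ribosomal stalk, stood at 500 CPM in members and 240 CPM in the near set, a log2 ratio of 1.06 (0.76 to 1.35). RPS28, of the small subunit, stood at 437 CPM in members and 186 CPM in the near set, a log2 ratio of 1.23 (0.91 to 1.56). RPS14 had a log2 ratio of 0.85 (0.50 to 1.18). The family ran from RPS26 at 2.29 (26 UMIs in members, 11 in the near set) down to RPL5 at −0.04, which was the lowest of the 31. Ribosomal protein genes have many near-identical processed copies, so how their reads were shared out is uncertain.

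Barcode by barcode the sets overlapped. Ribosomal protein RNA ran from 0 to 33435 CPM in members, with a median of 3695 and 10 barcodes at 0. In the near set it ran from 0 to 42105 CPM, with a median of 2194 and 47 barcodes at 0. The medians kept the order of the sums, while single barcodes of the near set reached above every member.

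Genes of the mitochondrial respiratory chain that are encoded in the nucleus were also higher. Their sum was 2433 CPM (2279 to 2596) in members and 1552 CPM (1468 to 1641) in the near set, a log2 ratio of 0.65 (0.52 to 0.77). Of 34 genes measured, 7 were at least 2-fold higher and 0 at least 2-fold lower. ATP5F1B, the beta subunit of ATP synthase, stood at 213 CPM in members and 113 CPM in the near set (log2 ratio 0.92, 0.47 to 1.37). ATP5F1D, another subunit of that enzyme, and NDUFS5, of complex I, had log2 ratios of 1.46 and 1.52. The lowest was NDUFB6 at −0.87, on 4 UMIs in members and 17 in the near set.

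**Figure D2:**
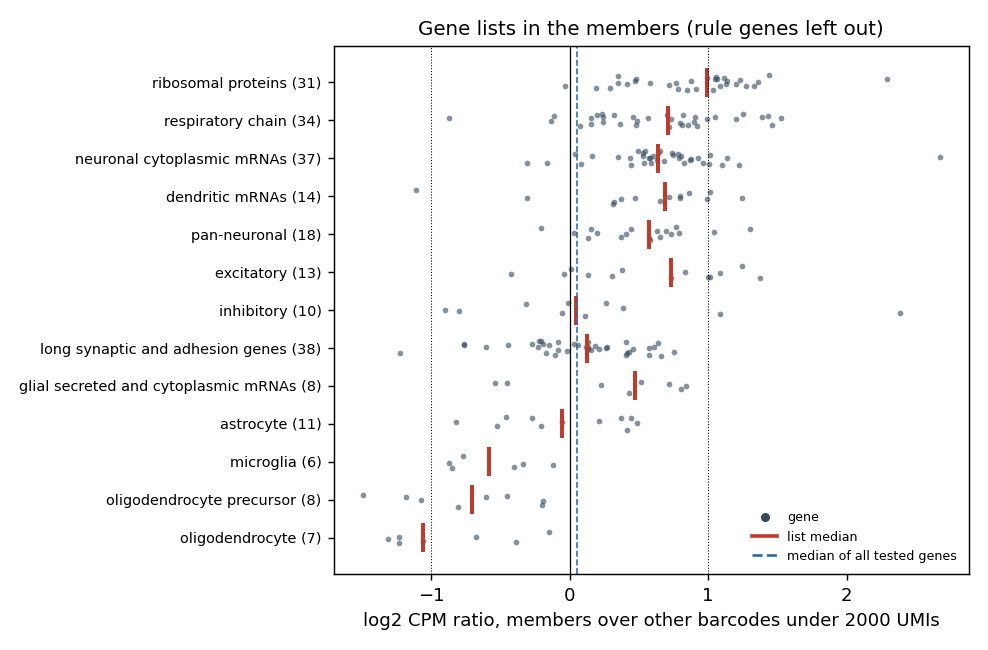
Each point is a measured gene of a list, placed by its log2 ratio of members over the near set, and the red bar is the median of the list. Ribosomal protein and respiratory chain genes lie mostly to the right of 0, with medians of 0.99 and 0.71, and oligodendrocyte genes lie to the left, with a median of −1.06.

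Messengers of the neuronal cytoplasm outside the rule were higher too. The rule picked barcodes mostly on genes of the neuronal cytoplasm and dendrites. This list, and the dendritic genes and receptors below, are therefore not independent of the choice. Among barcodes led by neuronal markers the log2 ratio of this list was 0.11 (0.03 to 0.18). The 38 listed genes, which encode tubulins, synaptic vesicle proteins and glycolytic enzymes among others, summed to 20334 CPM (19883 to 20793) in members and 13435 CPM (13184 to 13691) in the near set. That was a log2 ratio of 0.60 (0.56 to 0.64), with 6 of 37 measured genes at least 2-fold higher and 0 at least 2-fold lower. OLFM1, a secreted glycoprotein of neurons, stood at 553 CPM in members and 258 CPM in the near set. VAMP1, a vesicle protein of transmitter release, and GAPDH, an enzyme of glycolysis, had log2 ratios of 1.23 and 1.01. The vesicle calcium sensor SYT1 had 5567 CPM in members and 3744 CPM in the near set, and it stands in the long-gene list as well. The exceptions included STMN4, a regulator of microtubules, with a log2 ratio of −0.31 (−0.90 to 0.24).

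Among dendritic messengers and receptors the picture was mixed. The dendritic list summed to 8272 CPM in members and 5940 CPM in the near set, a log2 ratio of 0.48 (0.41 to 0.54), with 2 of 14 genes at least 2-fold higher and 1 at least 2-fold lower. ICAM5, an adhesion protein of the dendrites of excitatory neurons, and DLGAP3, a postsynaptic scaffold, were the higher pair, with log2 ratios of 1.24 and 1.02. HOMER3, another scaffold, was the lower one at −1.11 (−2.02 to −0.35). MAP2, the classic microtubule protein of dendrites, stood at 1801 CPM in members and 1452 CPM in the near set (log2 ratio 0.31). GRIN1, the obligatory subunit of NMDA-type glutamate receptors, stood at 745 CPM in members and 302 CPM in the near set, a log2 ratio of 1.30 (1.05 to 1.55). It was the 1 glutamate receptor gene of 10 that was at least 2-fold higher, while 2 were at least 2-fold lower.

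In sum, markers of excitatory neurons were higher in members and those of inhibitory neurons lower, though single inhibitory genes split evenly. The excitatory list summed to 2755 CPM in members and 1964 CPM in the near set, with 5 of 13 genes at least 2-fold higher and 0 at least 2-fold lower. Of the 13, 11 were higher and 2 lower, and 4 had an interval above 0. Among the 5, SYT6 rested on 8 UMIs in members and 8 in the near set, and NEUROD1 on 5 in members and 4 in the near set. TLE4, a corepressor of deep-layer neurons, had a log2 ratio of −0.43 (−0.78 to −0.09). LDB2, a cofactor of transcription, stood at 1206 CPM in members and 725 CPM in the near set. CAMK2A, which carried the choice, is a gene of excitatory synapses, so the excitatory list is not independent of the rule. The inhibitory list summed to 6005 CPM in members and 8244 CPM in the near set. That sum leaned on ERBB4, the neuregulin receptor, at 2320 CPM in members and 4339 CPM in the near set. Of the 10 inhibitory genes measured, 5 were higher and 5 lower, with 2 intervals above 0 and 2 below. At least 2-fold higher were 2 of them, and 0 were at least 2-fold lower. The median log2 ratio of the list was 0.05. The peptide gene SST had a ratio of 2.38 (0.89 to 4.31) on 13 UMIs in members and 5 in the near set.

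Long synaptic and adhesion genes, which include the most abundant genes of the members, differed little in sum from the near set, though single genes went either way. The 38 synaptic and adhesion genes summed to 118112 CPM in members and 110134 CPM in the near set, a log2 ratio of 0.10 (0.08 to 0.12), with 0 of 38 at least 2-fold higher and 1 at least 2-fold lower. Within them KCNIP4, which modulates potassium channels, stood at 10253 CPM in members and 6487 CPM in the near set. PTPRD, a synaptic receptor phosphatase and the most abundant gene in members, stood at 12073 CPM in members and 9094 CPM in the near set. NKAIN2 went the other way, at 4327 CPM in members and 7337 CPM in the near set. Of the 38, 22 were higher and 16 lower, with 17 intervals above 0 and 9 below. The small sum therefore does not mean that each gene was unchanged. The sign of the sum turned in several alternatives: it was −0.048 with a minimum of 5000 CPM, −0.19 with CAMK2A left out of the rule and −0.092 among barcodes led by neuronal markers. Among barcodes led by microglial markers it was 0.64 (0.56 to 0.71), with 75373 CPM in members and 48491 CPM in the near set, and among those led by oligodendrocyte markers 0.14.

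Members also carried RNA of other cell types. PTGDS, which encodes a prostaglandin D synthase secreted by oligodendrocytes and the meninges, was listed as a marker of these barcodes but is not in the rule. It stood at 1767 CPM (1636 to 1906) in members, 1010 CPM (942 to 1082) in the near set and 85.1 CPM in the far set. A PTGDS molecule was seen in 191 of 290 members. With every barcode thinned to 900 UMIs it was seen in 59.3% of members and 46.2% of the near set, against 65.9% and 56.8% unthinned. The thinned share was 55.7% (42.5 to 68.5%) in the near barcodes led by microglial markers, whose cell type should lack the gene, and 39.5% in those led by oligodendrocyte markers. In the far set it was 7.75% (5.77 to 10.15%), so the thinned share was uneven over the library. Leading markers do not name cells. The share in members is not read as expression, and its source was not tested. The whole list of glial secreted and cytoplasmic messengers, PTGDS included, stood at 6305 CPM in members and 4448 CPM in the near set, a log2 ratio of 0.50 (0.43 to 0.58), with 0 of 8 genes at least 2-fold higher or lower. That ratio was 0.24 with S100B left out of the rule and 1.16 with CAMK2A left out. S100B is a glial gene of the rule, so these levels are not independent of the choice. The list stood at 9139 CPM in the 132 members with S100B and 3914 CPM in the 158 without, the latter below the near set. PTGDS stood at 2607 CPM with S100B and 1058 CPM without it, the latter close to the near set. SPARCL1, a secreted protein of astrocytes, stood at 3729 CPM in members and 2604 CPM in the near set. TF, the iron carrier transferrin, went the other way, with a log2 ratio of −0.54 (−0.86 to −0.24).

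Other glial markers were mixed or lower in members. The astrocyte list stood at 3495 CPM in members and 3873 CPM in the near set, with 5 of 11 genes higher and 6 lower. The membrane protein MLC1 had a log2 ratio of 0.45 (0.15 to 0.74) and the transcription factor GLI3 one of −0.82 (−1.12 to −0.54). The oligodendrocyte list stood at 3795 CPM in members and 8238 CPM in the near set, a log2 ratio of −1.12 (−1.20 to −1.04), with 4 of 7 genes at least 2-fold lower, among them UGT8, an enzyme of myelin lipid synthesis, at 358 CPM in members and 844 CPM in the near set. That list led 20.3% of members and 31.6% of the near set, and its ratio was −0.66 with the near set weighted to the members' mix of leading lists, −0.44 without CAMK2A in the rule and −0.0037 among barcodes led by neuronal markers. Among barcodes led by astrocyte markers it stood at 1864 CPM in members and 1173 CPM in the near set. The list of oligodendrocyte precursors had a log2 ratio of −0.79, and PDGFRA, the growth factor receptor that defines them, had −1.49. The microglial list stood at 969 CPM in members and 1407 CPM in the near set, with P2RY12, a purine receptor, at 216 CPM in members and 390 CPM in the near set. None of these lists was absent from members, and what part the mix of cell types has in the ratios above was not tested beyond the split that follows.

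Each barcode was given the list that led among 6 marker lists (neuronal, astrocyte, oligodendrocyte, oligodendrocyte precursor, microglial and endothelial), that is, the one furthest above its mean share in the library with at least 3 UMIs. In shallow barcodes this rests on few molecules, so it sorts barcodes and does not name cells. Neuronal markers led in 85 of 290 members (29.3%) and in 114 of 586 barcodes of the near set (19.5%). Astrocyte markers led in 71 members, oligodendrocyte markers in 59, precursor markers in 44, microglial markers in 25 and endothelial markers in 6. The label of neuronal RNA thus describes the RNA that the rule picked, while most members were led by a glial or endothelial list. Leading is relative to the library mean, so a sparse list can lead over a more abundant one. Members led by astrocyte markers held 34335 CPM of neuronal markers and 8891 CPM of astrocyte markers. The count of members led by glial lists is therefore not a count of glial cells.

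The differences depended on which list led. Among barcodes led by neuronal markers, ribosomal protein RNA stood at 3100 CPM in members and 2408 CPM in the near set, a log2 ratio of 0.36 (0.15 to 0.58). In these barcodes neuronal cytoplasmic genes had a ratio of 0.11 (0.03 to 0.18), close to the near set. Respiratory chain genes had 0.28 (−0.0027 to 0.56), an interval that just reached 0 and does not settle whether they differed. Among barcodes led by astrocyte markers ribosomal protein RNA stood at 7926 CPM in members and 2990 CPM in the near set, a log2 ratio of 1.41 (1.24 to 1.57). Barcodes led by oligodendrocyte and precursor markers had log2 ratios of 0.95 and 1.08.

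The remaining lists were smaller in number. Barcodes led by microglial markers had 5623 CPM in members and 3651 CPM in the near set, a log2 ratio of 0.62 (0.35 to 0.89). In the 6 members and 15 near barcodes led by endothelial markers no difference was detectable, at −0.05 (−0.51 to 0.37). Giving the near set the same mix of lists as the members left the ratio at 0.91.

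**Figure D3:**
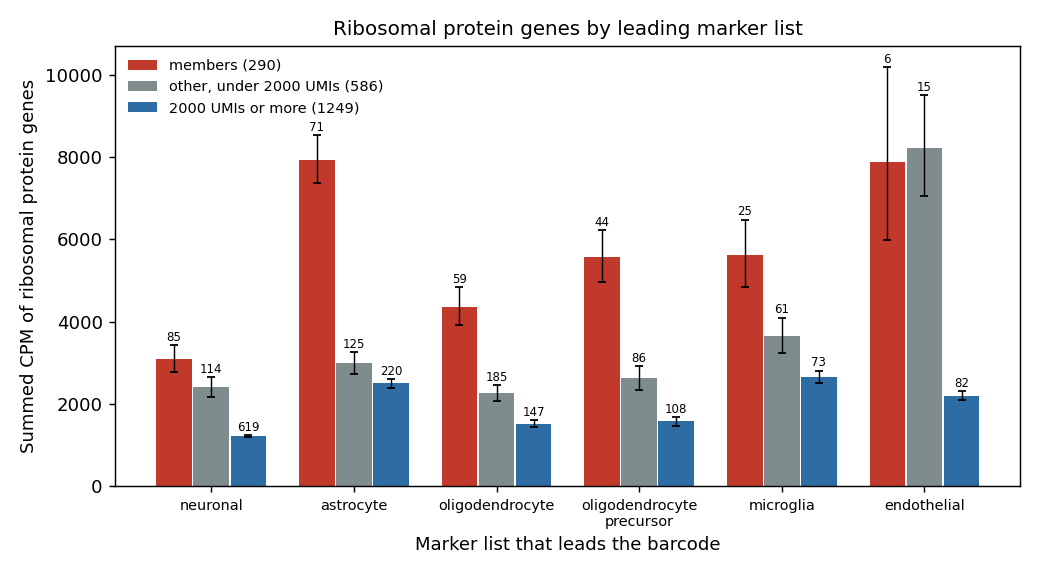
Bars give ribosomal protein CPM summed over barcodes, by leading marker list, for members (red), the near set (grey, other barcodes under 2000 UMIs) and pre-processed barcodes of 2000 UMIs or more (blue), with 95% counting intervals and the number of barcodes above each bar. Members lie furthest above the near set where astrocyte markers lead, at 7926 against 2990 CPM, and level with it where endothelial markers lead.

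PTGDS was spread over the same sorting. It stood at 3004 CPM in members led by astrocyte markers and 2039 CPM in such near barcodes, and at 639 CPM in members led by neuronal markers and 446 CPM in such near barcodes. Members led by oligodendrocyte markers had 1540 CPM against 687 CPM in the near set. The order of the 2 sets was the same in all 6 lists, and members led by neuronal markers held the least.

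Along the rule score, ribosomal protein RNA stood far apart in the top bin. Over bins of summed rule CPM at 0, above 0 to below 1000, 1000 to below 2000 and 2000 to below 3000, ribosomal protein RNA stood at 2266, 3081, 2763 and 3136 CPM. Over bins of 3000 to below 4000, 4000 to below 6000 and at least 6000 CPM it stood at 3956, 4191 and 9308 CPM. The top bin held 66 members, of which 24 were led by astrocyte markers and 18 by neuronal markers. Respiratory chain RNA followed the same course, at 2059, 2109 and 3718 CPM over the bins from 3000 CPM on. Without the 66 members of the top bin the ribosomal log2 ratio was 0.54.

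**Figure D4:**
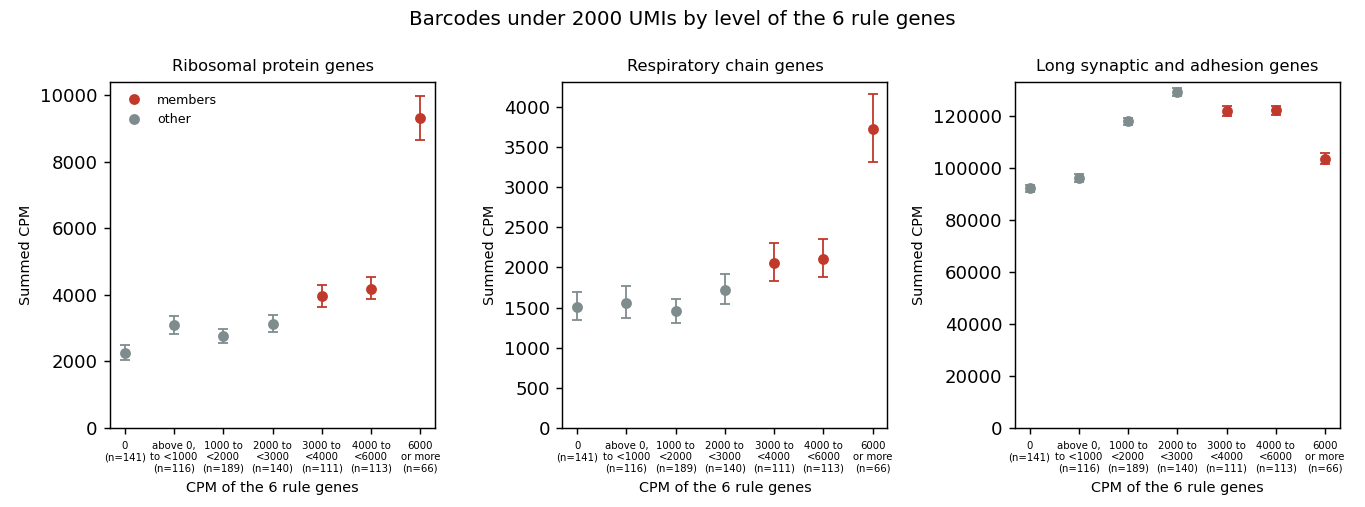
Summed CPM of ribosomal protein, respiratory chain and long synaptic genes (3 panels) is plotted across bins of the rule score for pre-processed barcodes under 2000 UMIs, with members in red, the near set ("other") in grey and bars for 95% counting intervals. Ribosomal protein RNA stays between 2266 and 4191 CPM up to the bin below 6000 CPM and stands at 9308 CPM in the top bin.

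A small set of members held very high ribosomal protein RNA. At least 10000 CPM was reached by 40 of 290 members (13.8%, 10.04 to 18.3%), by 4 of 586 barcodes of the near set (0.683%, 0.186 to 1.74%) and by 1 of 619 of the far set. Of all 1249 pre-processed barcodes of 2000 UMIs or more, 19 (1.52%) reached it. Of the 40, 20 were led by astrocyte markers, 7 by precursor markers and 4 by neuronal markers. They were chosen by this value, and what follows describes them. PTGDS stood at 4402 CPM in the 40 and 1368 CPM in the other 250 members, while long synaptic genes stood at 75487 CPM in the 40 and 124574 CPM in the other 250. S100B was detected in 26 of the 40 (65.0%) and in 106 of the 250 (42.4%). The 19 deeper barcodes were like the 40 in PTGDS, at 4386 CPM, and in S100B, at 1556 CPM against 1360 CPM in the 40. Their long synaptic genes stood at 95367 CPM, so the combination was not particular to members. S100B was detected in 89.5% of the 19. Their median depth was 3193 UMIs against 1228.5 in the 40, so that share is not comparable with 65.0%. Their leading lists differed, with 7 led by endothelial and 5 by astrocyte markers, against 2 and 20 of the 40.

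The members differed among themselves by which gene of the rule they carried. The 132 members with S100B had 6659 CPM (6281 to 7054) of ribosomal protein RNA, 2607 CPM of PTGDS and 4599 CPM of SYT1. The 158 without S100B had 3957 CPM (3690 to 4238), 1058 CPM and 6385 CPM of the same. The astrocyte list stood at 5278 CPM with S100B and 1991 CPM without it. The 141 members with NEFL or NEFM had 6155 CPM of ribosomal protein RNA, against 4278 CPM in the 149 without, and there the astrocyte list stood at 3321 CPM with and 3661 CPM without. The split uses genes of the rule, so a member without S100B reached the limit on neuronal genes by construction, and these values only describe the members.

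Depth moved with both measures, so the sets were also compared in bands. From 900 to below 1200 UMIs ribosomal protein RNA stood at 5888 CPM in 129 members and 3103 CPM in 218 near barcodes. From 1200 to below 1500 UMIs it stood at 5980 CPM in 84 members and 3161 CPM in 162 near barcodes. From 1500 to below 2000 UMIs it stood at 3822 CPM in 77 members and 2386 CPM in 206 near barcodes. Members were higher in each band.

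The wider library showed the same slope with depth. Over all pre-processed barcodes, ribosomal protein RNA stood at 2822 CPM from 2000 to below 3000 UMIs and 1178 CPM at 10000 UMIs or more. The share of barcodes that met the gene conditions was 37.2% from 900 to below 1200 UMIs, 23.2% from 2000 to below 3000 and 4.30% at 10000 or more. The summed level of the 6 genes in these bands was 2809, 2016 and 1494 CPM, which fell less than the share. In shallow barcodes few molecules reach the limit, so the share also moves with counting error and does not measure the slope of this RNA. At 2000 UMIs or more 156 of 1249 barcodes (12.5%) met the conditions on the 6 genes.

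**Figure D5:**
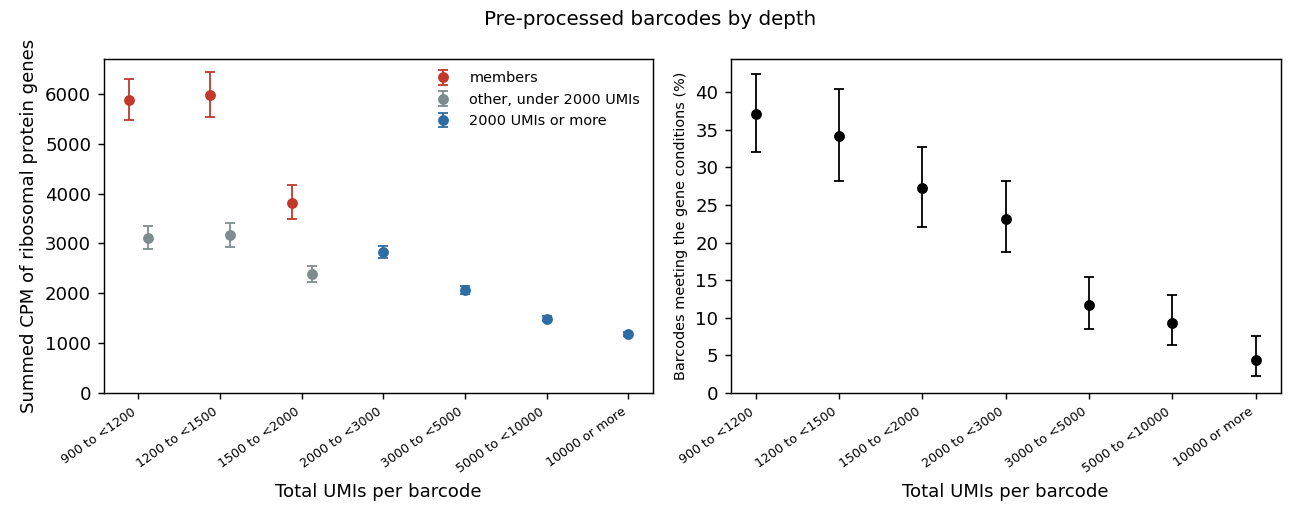
The left panel shows ribosomal protein CPM by band of UMI total for members, the near set and all pre-processed barcodes of 2000 UMIs or more, and the right panel the percent of pre-processed barcodes that meet the conditions on the 6 genes, both with 95% counting intervals. Members lie above the near set in each band under 2000 UMIs, and the share that meets the conditions is 37.2% in the shallowest band and 4.30% in the deepest.

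Thinned to 900 UMIs, members showed a median of 608 detected genes and the near set 583, against 553 in the far set. The unthinned medians were 770 in members, 769.5 in the near set and 1985 in the far set. At equal depth the members therefore spread their molecules over 25 more genes than the near set in the median. In the same thinning GRIN1 was seen in 39.0% of members, 18.9% of the near set and 35.5% of the far set, and in 11.5% of near barcodes led by microglial markers. SYT1 was seen in 93.8% of members, 72.2% of the near set and 99.4% of the far set, and in 59.0% of those led by microglial markers. That share is a level to set beside the others, but whether it is background was not tested. The sorting does not name cells, and the near set holds only barcodes that did not meet the rule.

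Among measured genes with a symbol of their own, numbered LOC identifiers left out, the highest and lowest ratios sat on few molecules. ITGA10, an integrin subunit, had a log2 ratio of 3.04 (1.34 to 5.66) on 13 UMIs in members and 3 in the near set. TUBA4A, a tubulin, had 2.67 on 13 and 4 UMIs, and LYNX1, a modulator of nicotinic receptors, had 2.35 on 27 and 11 UMIs. At the low end ZNF346, an RNA-binding zinc finger protein, had −3.26 on 1 UMI in members and 30 in the near set. PNOC, the gene of the nociceptin precursor, had 0 UMIs in members and 8 in the near set, a difference that counting error covers. With so few molecules the order within these ends is not firm.

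Genes of at least 500 UMIs in the library gave steadier ends. With the rule genes left out, CPNE6, a calcium-dependent membrane-binding protein of neurons, was highest at 1.88 (1.20 to 2.62), with 129 CPM in members and 34.7 CPM in the near set. NAT8L, which makes N-acetylaspartate in neurons, stood at 184 CPM in members and 59.5 CPM in the near set (1.63, 1.08 to 2.19). The lowest were CREB5 at −1.55 and ARAP2 at −1.54, followed by PDGFRA. ARAP2, a regulator of small GTPases, stood at 861 CPM in members and 2511 CPM in the near set.

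Against the far set, members held much more ribosomal protein RNA and less long-gene RNA. The near set lay on the same side of the far set, at 2799 CPM of ribosomal protein RNA and 110134 CPM of long-gene RNA. Both directions were thus not particular to members. Ribosomal protein genes stood at 5193 CPM in members and 1225 CPM (1195 to 1256) in the far set, a log2 ratio of 2.08 (2.01 to 2.16), with 28 of 31 genes at least 2-fold higher. Across all genes 24.3% were at least 2-fold higher in members and 2.89% at least 2-fold lower, and the median log2 ratio was 0.41, so ratios here are to be read against that shift. RPLP1 had a log2 ratio of 3.06 and RPS28 of 2.74. Respiratory chain genes had 1.32 (1.22 to 1.42), with 22 of 34 at least 2-fold higher. Scaling by the median gene ratio set the ribosomal ratio at 1.67 and the counts of higher and lower genes at 801 and 518, against 1363 and 162.

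Long synaptic genes were on the other side of that shift. They stood at 118112 CPM in members and 193458 CPM in the far set, a log2 ratio of −0.71 (−0.73 to −0.70), with 0 of 38 at least 2-fold higher and 7 at least 2-fold lower. KCNIP4 stood at 10253 CPM in members and 20808 CPM in the far set, and SYT1 at 5567 CPM in members and 9145 CPM in the far set. Neuronal cytoplasmic genes differed little in sum, at 20334 CPM in members and 21061 CPM in the far set, though GAPDH had a log2 ratio of 2.04. That sum has SYT1 in it, and its sign turned to 0.10 against all 1249 barcodes of 2000 UMIs or more and to 0.18 with members led by neuronal markers alone.

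The glial lists were far higher in members than in the far set, which was picked for neuronal over glial markers, so their ratios describe the choice of that set. The microglial list stood at 969 CPM in members and 36.3 CPM in the far set. PTGDS is in none of the lists used to pick that set and had a log2 ratio of 4.38 (4.199 to 4.55). As a glial messenger it is not independent of that choice either. It stood at 639 CPM in members led by neuronal markers and 85.1 CPM in the far set. Restricted to the 85 members led by neuronal markers, the ribosomal log2 ratio over the far set was 1.34.

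In the post-processed library such barcodes were rare. Of its 905 barcodes 5 met the rule (0.552%, 0.180 to 1.28%), against 290 of 2125 in the pre-processed library. All 5 qualified on S100B alone, with 4 to 7 UMIs in totals of 51 to 96 UMIs. The whole post-processed library held 3 UMIs of CAMK2A and 0 of NEFM and DDN.

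Depth differs strongly between the libraries. Of the 93 post-processed barcodes in the UMI range of the shallow pre-processed ones, 0 met the rule, which with a floor of 3 counts allows a share of up to 3.23%. PTGDS stood at 230 CPM (198 to 266) over the post-processed library and 463 CPM (450 to 477) over the pre-processed library. With 1 library each, the clearing step and any other difference between the libraries cannot be told apart.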

How the data were processed

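The deposited matrices hold whole-number UMI counts per gene and barcode with no normalization, as the values show. DRAGEN made them, per the submitters' processing notes, and Seurat is named in the series text for the later steps, none of which was used here. Not given in the sources used here are its version, the genome build and annotation, the use of strand, the rule for calling barcodes and the treatment of doublets. The listed genes (12652 symbols) all matched the RefSeq gene table, where they are 9847 of 21300 protein-coding genes, and the others were not analysed here.

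The members, gene lists and alternatives were chosen with earlier results of these data known. UMIs were summed over the barcodes of a set and divided by the sum of its UMIs over all listed genes (CPM). Log2 ratios for single genes had 0.5 UMIs added to each sum, and genes of at least 100 UMIs over the pre-processed library were measured. Intervals of 95% were exact Poisson for CPM, exact binomial (Clopper-Pearson) for shares and conditional binomial for ratios. A barcode was sorted to the marker list whose share of its UMIs was highest relative to the same share in the whole library, given at least 3 UMIs of that list. Barcodes were thinned to 900 UMIs to compare detection. No test was run, since each condition is 1 library. Named genes were the rule genes, PTGDS, the 12 highest and 12 lowest ratios per comparison (also among genes of at least 500 UMIs), the 10 most abundant and the most abundant of each list. Genes at the ends of a list were named after their values were seen. Scripts were checked on simulated counts. Python 3.11.15, numpy 2.4.6, scipy 1.17.1 and pandas 2.3.3 were used. Some genes that the rule names are not reported here.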

Additional observations from a re-analysis of the deposited data

How the results depend on the processing

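Of 185 alternative values, 105 kept their direction and stayed near the value reported, 74 moved and 6 changed sign. The limits of 20 and 500 UMIs change only which genes are counted. The list ratios under those limits equal the main values by construction, yet are among the 105, so that count overstates the agreement. A minimum of 5000 CPM left 111 members, and, among choices made after seeing the data, leaving CAMK2A out of the rule left 48. For members over the near set, where 339 genes were at least 2-fold higher and 236 at least 2-fold lower, the counts were 629 and 416 with 5000 CPM, 812 and 548 with genes of at least 20 UMIs, 69 and 64 with genes of at least 500 UMIs, 934 and 544 without CAMK2A, and 727 and 614 among barcodes led by neuronal markers; those lower were 374 under a limit of 1500 UMIs and 63 with 5 UMIs added. The ribosomal log2 ratio was 0.74 with 2000 CPM, 1.25 with 5000 CPM, 0.77 without S100B, 1.56 without CAMK2A, 0.54 without members of 6000 CPM or more and 0.36 among barcodes led by neuronal markers. The long-gene ratio changed sign to −0.048 with 5000 CPM, −0.19 without CAMK2A and −0.092 among barcodes led by neuronal markers. For members over the far set, the counts of higher and lower genes were 832 and 97 against all barcodes of 2000 UMIs or more and 801 and 518 with scaling by the median gene ratio, and those lower were 356 with members led by neuronal markers alone. The ribosomal ratio was then 1.73, 1.67 and 1.34, and 1.87 with barcodes thinned to 900 UMIs. The ratio of neuronal cytoplasmic genes changed sign to 0.10 against all barcodes of 2000 UMIs or more and to 0.18 with members led by neuronal markers, where the oligodendrocyte list changed sign to −0.28. Members exceeded the near set by 25 detected genes at 900 UMIs, by 15.5 at 600 UMIs and by 0.5 unthinned. The settings on barcodes led by neuronal markers, the mix of lists, CAMK2A and the 6000 CPM limit were all chosen after seeing the data. The cause of these shifts was not tested. No paired analysis was possible because each condition is 1 library.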
